A study of Mus musculus with 5 samples.

Results

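Pax1 to Pax8 are 8 of the 9 mouse Pax genes, and the H3K27me3 peaks at them in molar mesenchyme are described here. The members were chosen by gene name, with earlier results of these data known. They make up 8 of the 21938 protein-coding genes of the annotation. A peak was counted for a gene where it shared at least 1 base with the gene body or the 5 kb on either side, here called the locus. H3K27me3 is histone H3 trimethylated at lysine 27, and was profiled by ChIP-seq, in which chromatin bound by an antibody is sequenced. All 5 libraries came from molars of wildtype C57BL/6 mice at postnatal day 3, whose mesenchyme was used once the epithelium had been taken off. There were 2 libraries with the H3K27me3 antibody, 2 input libraries of chromatin that was not immunoprecipitated, and 1 library with a nonspecific IgG antibody. The data hold 1 condition only, so no test between groups was possible. Whether each library stands for another animal or another pool is not said in the labels, and the SD over 2 libraries measures only how far those libraries lie apart.

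The mark is written by the methyltransferase Ezh2 within Polycomb repressive complex 2, and is found on genes of developmental regulators in cell types where those genes are silent. Pax genes encode transcription factors that bind DNA through a paired domain, and each is used in the making of particular organs. By sequence they fall into subgroups, with Pax1 beside Pax9, Pax2 beside Pax5 and Pax8, Pax3 beside Pax7, and Pax4 beside Pax6. Pax9, which the choice of members leaves out, is the Pax gene known for its role in dental mesenchyme.

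The authors deposited 3 lists of broad peaks. These are replicate 1 against its input with 22757 peaks, the same replicate 1 library against IgG with 24881 peaks, and replicate 2 against its own input with 33379 peaks, of which 33370 were on nuclear chromosomes. The first and second lists share the immunoprecipitated library and are not replicates of each other. Replicate 2 was deeper, with 50565700 tags against 31245609, and its tags were 74 bp long against 49 bp, so depth, tag length and replicate cannot be told apart. The weakest peaks rested on few tags, with a lowest mean pileup of 4 overlapping tags in replicate 1 and 6 in replicate 2, and 44.5%, 35.1% and 37.9% of the peaks in the 3 lists lay at the lowest value. Of the marker lists, a peak in both replicates was found at 7 of 13 genes of dental mesenchyme, 2 of 9 of epithelium, 2 of 5 of endothelium, 1 of 4 of immune cells, 2 of 4 of glia and 0 of 4 of muscle, and at 15.7% of all protein-coding genes. A peak is not a measure of expression, so these counts do not check the labelled tissue.

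The places where both H3K27me3 libraries had a peak against input on the same bases are shown first, since they carry the closest match between the replicates. In the lists against input there were 16 such stretches at 5 of the 8 genes, namely 6 at Pax6, 5 at Pax2, 3 at Pax7 and 1 each at Pax5 and Pax8. They held 2205 bp in all and ranged from 17 to 360 bp, and 12 of them lay within 10 kb of the 5′ end of the gene. Position was taken from the replicate 1 peak of each stretch, which touched an exon for 6. It lay in an intron for 6 and in the flank before the gene for 4. The shared bases themselves need not touch the exon. At Pax7 the stretch 4138 bp into the gene is counted with exons, though the replicate 2 peak that holds it lay in an intron. Of the stretches, 11 also overlapped a replicate 1 peak called against IgG. Replicate 1 peaks called against IgG overlapped replicate 2 peaks at Pax1 and Pax3 too, 1 and 2 of them. For each of the 5 genes, 1 to 3 stretches outside untranslated regions are printed below from the GRCm38 genome sequence, 5′ to 3′ on the strand of the gene. CpG dinucleotides are in capitals, and distances run from the annotated 5′ end to the middle of the stretch. The first Pax2 stretch and the Pax5 stretch are cut at 300 bases.
Pax2, 3765 bp before the 5′ end (chr19:44752101-44752400, plus strand): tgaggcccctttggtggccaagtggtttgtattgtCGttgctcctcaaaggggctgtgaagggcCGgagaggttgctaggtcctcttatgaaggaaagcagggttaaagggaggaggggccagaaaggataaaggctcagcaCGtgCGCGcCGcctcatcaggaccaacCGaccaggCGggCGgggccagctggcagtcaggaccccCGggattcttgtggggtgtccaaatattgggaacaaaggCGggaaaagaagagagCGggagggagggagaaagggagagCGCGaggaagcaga
Pax2, 781 bp before the 5′ end (chr19:44755216-44755313, plus strand): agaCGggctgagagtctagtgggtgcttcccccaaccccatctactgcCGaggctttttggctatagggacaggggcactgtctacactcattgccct
Pax2, 8010 bp into the gene (chr19:44763963-44764147, plus strand): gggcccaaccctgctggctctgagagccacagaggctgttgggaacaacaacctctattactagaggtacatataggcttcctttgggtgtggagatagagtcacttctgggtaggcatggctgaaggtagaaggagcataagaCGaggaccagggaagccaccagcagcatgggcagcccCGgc
Pax6, 5812 bp into the gene (chr2:105674671-105674754, plus strand): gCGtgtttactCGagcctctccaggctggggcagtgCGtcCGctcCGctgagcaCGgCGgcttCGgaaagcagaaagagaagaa
Pax6, 833 bp before the 5′ end (chr2:105668011-105668123, plus strand): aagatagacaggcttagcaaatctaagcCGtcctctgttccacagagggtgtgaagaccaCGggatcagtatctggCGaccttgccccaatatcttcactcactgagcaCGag
Pax6, 21725 bp into the gene (chr2:105690592-105690659, plus strand): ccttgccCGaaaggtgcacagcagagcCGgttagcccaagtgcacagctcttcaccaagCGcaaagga
Pax7, 4457 bp into the gene (chr4:139829044-139829098, minus strand): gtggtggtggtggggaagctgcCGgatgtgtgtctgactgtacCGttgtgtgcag
Pax5, 94380 bp into the gene (chr4:44615958-44616257, minus strand): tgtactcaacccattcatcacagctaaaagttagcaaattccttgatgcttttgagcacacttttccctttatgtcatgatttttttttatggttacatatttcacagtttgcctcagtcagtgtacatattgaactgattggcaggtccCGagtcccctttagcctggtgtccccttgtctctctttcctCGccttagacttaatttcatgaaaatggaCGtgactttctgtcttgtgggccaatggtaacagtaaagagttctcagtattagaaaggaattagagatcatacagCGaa
Pax8, 981 bp before the 5′ end (chr2:24476505-24476655, minus strand): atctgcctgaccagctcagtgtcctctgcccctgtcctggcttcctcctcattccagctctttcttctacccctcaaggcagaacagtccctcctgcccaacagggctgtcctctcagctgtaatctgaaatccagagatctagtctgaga

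The printed stretches differed in CpG content. The 84 bases at Pax6, 5812 bp into the gene, held 8 CpG, and the 300 bases before Pax2 held 14. The 151 bases before Pax8 held 0. Over the 16 stretches the median GC content was 56.7% and the median ratio of observed to expected CpG was 0.545, with a range from 0 to 1.01. Over all replicate 1 peaks against input the medians were 46.4% and 0.147, and over all replicate 2 peaks they were 45.1% and 0.151. Over the Pax peaks alone they were 48.8% and 0.263 in replicate 1 against input, and 52.7% and 0.294 in replicate 2.

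Peaks were dense at the Pax genes in all 3 lists. The 8 loci held 141 replicate 1 peaks against input, 156 against IgG and 72 replicate 2 peaks, a mean of 106.5 ± 48.8 for the lists against input (SD, n = 2). Replicate 2 had the longer list and the fewer peaks at these genes. They made up 0.620%, 0.627% and 0.216% of their lists. Per 10 kb there were 2.13, 2.36 and 1.09 peaks at the Pax loci, while the whole genome had 0.0835, 0.0913 and 0.122. Peaks covered 4.29%, 4.63% and 2.73% of the 662 kb of Pax loci, compared with 0.110%, 0.123% and 0.238% of the genome. In bulk chromatin, fewer cells that carry the mark and less mark per cell cannot be told apart.

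A peak was present in replicate 1 against input at 8 of 8 Pax genes, where the share over all protein-coding genes was 25%. Against IgG it was also 8 of 8, with 25.9% of all genes. In replicate 2 it was 7 of 8, with 35.7% of all genes. The genes with a peak in both replicates against input were Pax1, Pax2, Pax3, Pax5, Pax6, Pax7 and Pax8, while 15.7% of all genes had one, or 14.9% of the genes whose locus length lay within the range of the members. Within 1 kb of the annotated 5′ end, here called the promoter, replicate 1 had a peak at 7 of 8 against input and at 6 of 8 against IgG, where all genes gave 3.87% and 4.52%. Replicate 2 had one at 7 of 8, where all genes gave 4.16%. The same 7 genes had a promoter peak in both replicates, and 1.04% of all genes did. Pax4 was the exception in each count over both replicates. These counts rest on weak peaks. With only peaks of a fold enrichment of 3 or higher, 1 of 8 Pax genes had a peak in both replicates and 0 had a promoter peak in both. That limit was reached by only 8.96% of all replicate 1 peaks against input and 1.56% of all replicate 2 peaks. The share over all protein-coding genes was not computed under it. The map of the 3 lists along the genes shows the peaks of each library as separate short blocks near the 5′ ends and along the introns.

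**Figure D1:**
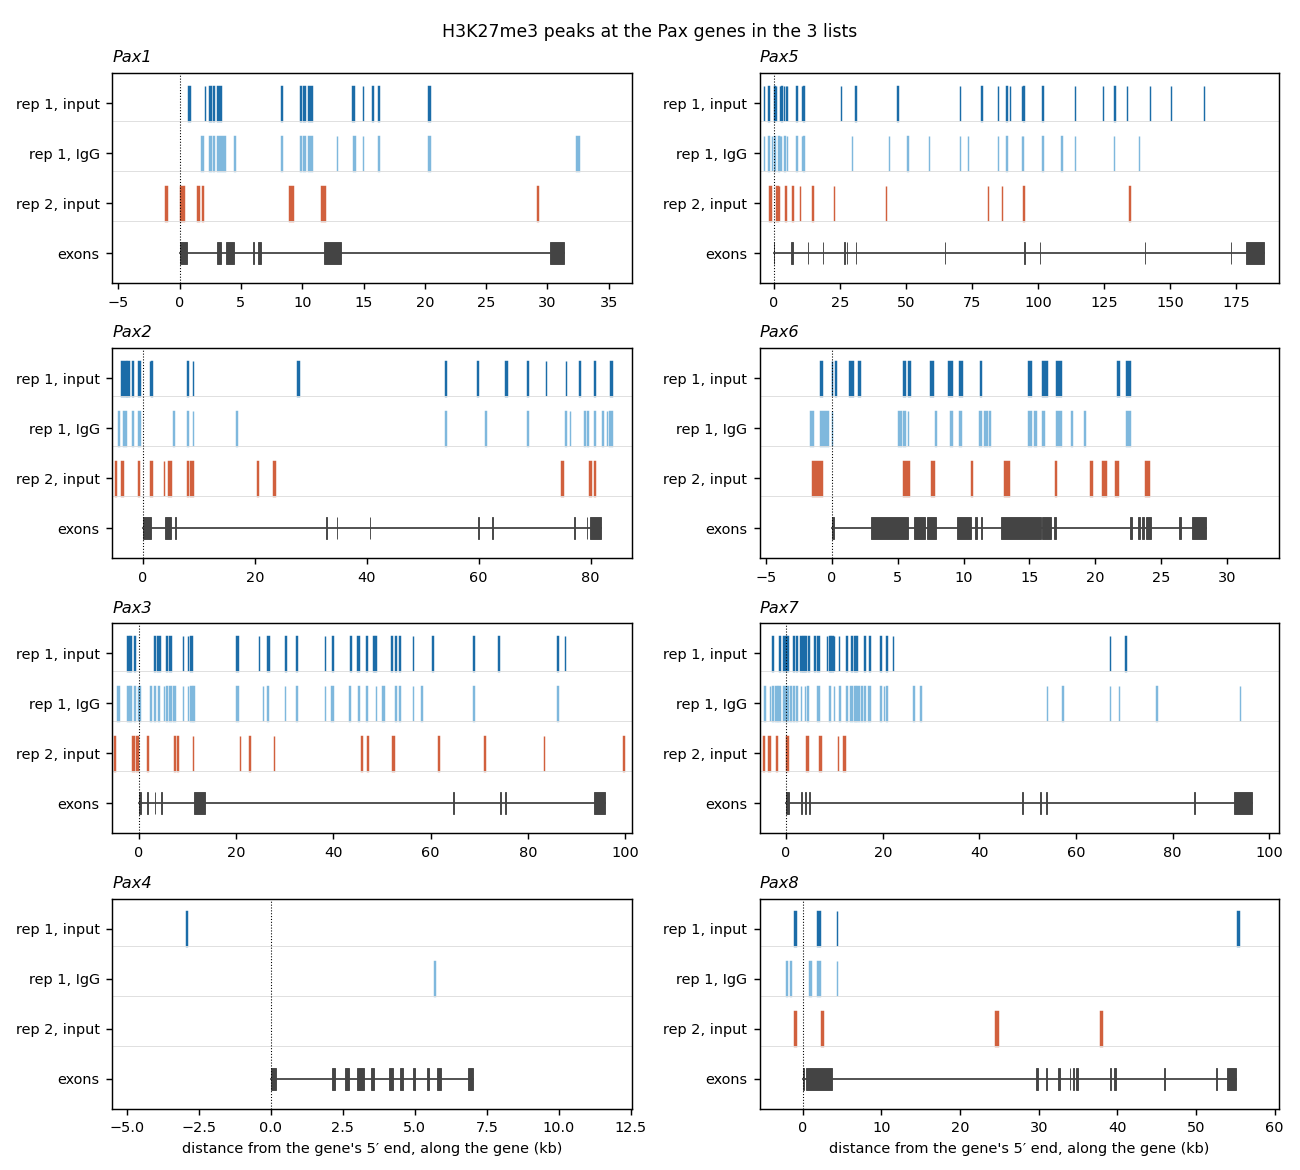
Peaks of the 3 lists along each Pax gene, with the distance from the 5′ end in kb on the horizontal axis, exons of all annotated transcripts in grey and a dotted line at the 5′ end. Replicate 1 against input had 31 peaks at Pax3 and 1 at Pax4, and 7 of the 8 genes had a peak within 1 kb of the 5′ end in both replicates.

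Pax1 acts in the sclerotome, from which vertebrae form, and in the pharyngeal pouches. Its locus (chromosome 2, gene body 147361925 to 147393295, plus strand) held 14 peaks in replicate 1 against input, 15 when called against IgG, and 7 in replicate 2. Peaks covered 4.86%, 5.70% and 3.74% of it, a mean of 4.30% ± 0.790 for the replicates against input (SD, n = 2). The peak of replicate 2 nearest to the 5′ end began 23 bp into the gene and was 358 bp long. It had the highest pileup of the Pax peaks in that list, 8.27 tags, with a fold enrichment over control of 3.18. In replicate 1 the nearest peak against input began 708 bp into the gene and the nearest against IgG 1752 bp into it. Both of the peaks nearest in the lists against input also lay in AI646519, which overlaps Pax1, and ChIP-seq has no strand with which to assign them. In the lists against input, no Pax1 peak of one replicate shared a base with one of the other, while 1 of the 15 replicate 1 peaks called against IgG overlapped a replicate 2 peak.

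Pax2 is known from the kidney, the optic stalk and the inner ear, Pax5 from the B cell lineage and the midbrain, and Pax8 from the thyroid and the kidney. Pax2 (chromosome 19, 44756045 to 44837871, plus strand) held 18, 19 and 13 peaks in the 3 lists, taken in the same order, which covered 4.53%, 4.73% and 3.72% of the locus. The mean was 4.13% ± 0.574 (SD, n = 2). Of the 5 stretches shared by the replicates at Pax2, 3 were within 4 kb of the 5′ end, and the printed ones 3765 bp and 781 bp before the gene were called in both replicates and against IgG. Of the Pax2 peaks, 3, 4 and 4 in the 3 lists also lay in Gm20395 or 1700039E22Rik.

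Pax5 (chromosome 4, 44524757 to 44710487, minus strand), with the longest locus of the 8 at 195731 bp, held 30, 28 and 13 peaks. They covered 2.52%, 2.29% and 1.77% of it, a mean of 2.15% ± 0.530 (SD, n = 2). A replicate 1 peak of 312 bp reached to 37 bp inside the 5′ end, while the nearest replicate 2 peak was 899 bp inside. The fold enrichment of 3.55 at a 46 bp peak 3951 bp before Pax5 was the highest of replicate 1 against input at any Pax gene. The stretch shared by the replicates lay 94380 bp into the gene, in an intron.

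Pax8 (chromosome 2, 24420560 to 24475599, minus strand) held 4, 5 and 4 peaks, the fewest after Pax4. They covered 1.31%, 1.49% and 1.54%, a mean of 1.43% ± 0.161 (SD, n = 2). It is the gene at which the covered share was higher in replicate 2 than in replicate 1. The promoter peaks of the replicates, 884 bp and 906 bp before the gene, overlapped over the 151 bp printed above, with fold enrichments of 2.56 and 2.58. Of the Pax8 peaks, 3, 5 and 3 also lay in Gm13415, which overlaps the gene.

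Pax3 and Pax7 act in the neural crest and in muscle precursors. Pax3 (chromosome 1, 78101267 to 78197134, minus strand) held 31, 35 and 17 peaks, which covered 6.49%, 6.52% and 2.90% of the locus. Pax7 (chromosome 4, 139737062 to 139833528, minus strand) held 27, 34 and 8 peaks, which covered 5.85%, 7.47% and 2.37%. These genes had the largest SDs of covered share among the 8, with means of 4.69% ± 2.54 for Pax3 and 4.11% ± 2.46 for Pax7 (SD, n = 2), and at both the lower value was that of replicate 2. At Pax7 a replicate 1 peak of 957 bp spanned the 5′ end, the longest peak at any Pax gene in that list, and a replicate 2 peak of 304 bp began 67 bp inside it. At Pax3 the nearest peaks in the lists against input were 860 bp and 293 bp before the gene and shared no base, while replicate 1 called against IgG had peaks 103 bp inside the gene and 117 bp before it. Of 31 Pax3 peaks in replicate 1 against input, 0 overlapped a replicate 2 peak and 25 overlapped a peak called against IgG. Of the 35 Pax3 peaks called against IgG, 2 overlapped a replicate 2 peak.

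Pax4 and Pax6 act together in the endocrine pancreas, and Pax6 is also the regulator of eye development. Pax6 (chromosome 2, 105668900 to 105697364, plus strand) held 16, 19 and 10 peaks and had the highest covered share in each list, 8.60%, 9.29% and 7.87%. The mean of 8.23% ± 0.515 (SD, n = 2) exceeded the mean of 99.5% of all protein-coding genes. Peaks of replicate 1 touched the 5′ end itself, and in replicate 2 the nearest peak, 777 bp long, ended 720 bp before it. Of the Pax6 peaks, 4, 3 and 1 also lay in Pax6os1, the antisense transcript that starts next to the gene. The shared stretches reached from 833 bp before Pax6 to 21725 bp into it, and 6 of the 16 replicate 1 peaks overlapped a replicate 2 peak.

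Pax4 (chromosome 6, 28442334 to 28449353, minus strand) was nearly free of peaks. It held 1 peak of 46 bp in replicate 1 against input, 2899 bp before the gene, and 1 of 46 bp against IgG at another place, 5650 bp into the gene. Replicate 2 had 0. The covered shares were 0.270%, 0.270% and 0%, with a mean of 0.135% ± 0.191 (SD, n = 2), and 46 bp was the shortest length of any Pax peak. Pax4 has the shortest locus of the 8, at 17020 bp.

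In the order of mean covered share, Pax6 came first, followed by Pax3, Pax1, Pax2, Pax7, Pax5, Pax8 and Pax4. The gap between neighbours was larger than the larger of their SDs for Pax6 above Pax3, for Pax5 above Pax8 and for Pax8 above Pax4. Among Pax3, Pax1, Pax2 and Pax7 no gap exceeded the larger SD. Pax5 lay below Pax1, Pax2 and Pax3 by 2.15, 1.98 and 2.55 percentage points, more than the larger SD in each pair, the last by a narrow margin, and below Pax7 by 1.96, less than the SD of 2.46 at Pax7. Across the 8 genes the shares in the replicates against input had a Pearson r of 0.858 and a Spearman rho of 0.810, given as a description over 8 loci read in the same libraries. Over all protein-coding genes the median covered share was 0% in each list, and the 99th percentile was 4.24%, 5.41% and 4.24%. In replicate 1 against input 5 Pax genes were above it, and in replicate 2 only Pax6 was, as the plot of covered shares shows.

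**Figure D2:**
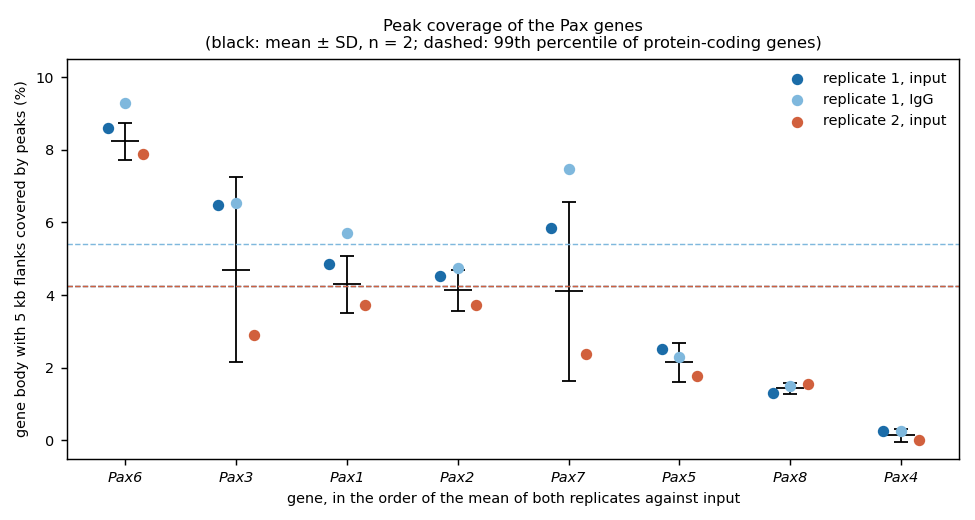
Percent of each Pax locus covered by peaks in the 3 lists, with the mean and SD of the replicates against input in black (n = 2) and the 99th percentile of all protein-coding genes as dashed lines. Pax6 is highest in all 3 lists, Pax4 is at or below 0.270%, and Pax3 and Pax7 show the widest gap between the replicates.

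Taken over the 8 genes together, coverage was highest around the 5′ ends. In the 5 kb before the 5′ end peaks covered 10.03% ± 0.493 of the bases of the 8 genes in the replicates against input (SD, n = 2), and in the first 5 kb of the genes 11.6% ± 4.20. From 5 to 10 kb the value was 8.73% ± 2.14 and from 10 to 25 kb it was 4.57% ± 1.06. Past 25 kb it was 1.42% ± 0.796. Over all protein-coding genes the same distances gave 0.321%, 0.370%, 0.260%, 0.185% and 0.172%. The pooled Pax values lay above those of all genes at each distance and in each list, as the plot of coverage by distance shows. Single genes could differ from the pooled order. At Pax6 the first 5 kb had 10.06%, 0.54% and 0% in the 3 lists, while 5 to 10 kb had 20.98%, 16.94% and 13.86%. The 5 kb before Pax6 had 2.72%, 17.96% and 15.54%. Of the Pax peaks, 91 of 141 in replicate 1 against input lay within 25 kb of the 5′ end, as did 104 of 156 against IgG and 54 of 72 in replicate 2, or 64.5%, 66.7% and 75.0%. Of the 662 kb of Pax loci, 435 kb lay past 25 kb, but only 11.4, 0 and 8.47 kb of these at Pax1, Pax4 and Pax6. The share of peaks within 25 kb was not computed over all genes.

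**Figure D3:**
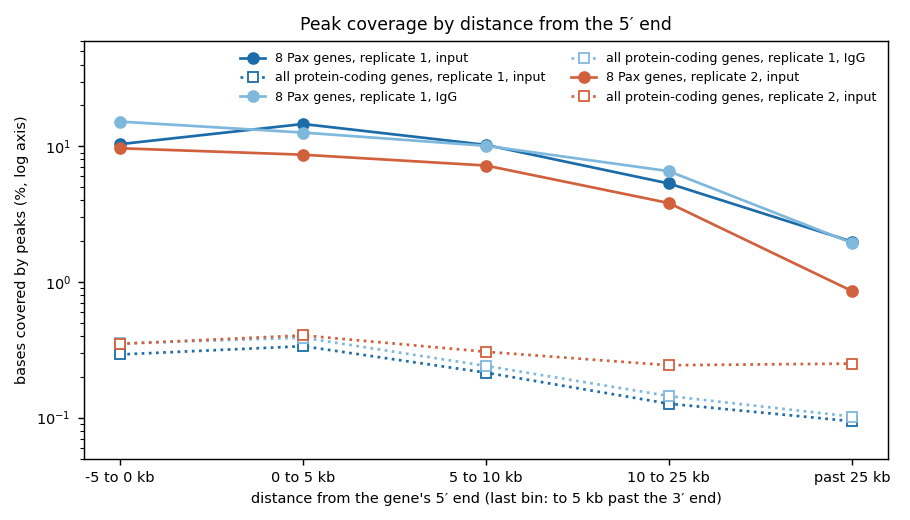
Percent of bases covered by peaks, on a log axis, by distance from the 5′ end for the 8 Pax genes (filled circles) and for all protein-coding genes (open squares) in the 3 lists. In replicate 1 against input the Pax value is 14.6% in the first 5 kb and 1.99% past 25 kb, and all 3 lists of the Pax genes stay above the values of all genes.

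By position, 14 of 141 replicate 1 peaks against input lay before the gene, 18 touched exons, 107 lay in introns and 2 after it. Against IgG these were 21, 24, 107 and 4 of 156, and in replicate 2 they were 13, 16, 42 and 1 of 72. Exons made up 7.56% of the bases of the loci and 11.02%, 10.4% and 21.6% of the bases under Pax peaks in the 3 lists. The exon share of the Pax6 locus was 30.4%, since many transcripts with separate starts are annotated there.

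Peaks closer than 5 kb to each other were joined to see how far they ran along the chromosome, beyond the locus where they did. The longest run at Pax6 was 34.4 kb with 20 peaks in replicate 1 against input and 18.7 kb with 9 peaks in replicate 2. Pax7 had runs of 28.9 kb and 17.0 kb, Pax5 of 27.8 kb and 21.2 kb, and Pax2 of 26.1 kb and 24.7 kb. At these 4 genes the runs of the replicates overlapped over 17.0 to 17.7 kb. The Pax2 run lay mainly before the gene, starting 24.6 kb before the 5′ end in replicate 1 and 15.8 kb before it in replicate 2. At Pax3 the longest runs, of 22.2 kb and 22.4 kb, lay in different places, inside the gene in replicate 1 against input and over the 5′ end in replicate 2. With the same replicate 1 library called against IgG, the longest Pax3 run was 28.7 kb, lay over the 5′ end and overlapped the replicate 2 run over 19.4 kb. Pax1 had 19.7 kb in replicate 1 against 3.17 kb in replicate 2, with an overlap of only 1.22 kb. Pax8 had 5.48 kb and 3.62 kb, which overlapped over 3.62 kb. Runs at other genes are not given here, so these lengths have no background beside them.

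The single peaks were short and weak. Their median length at the Pax genes was 162 bp in replicate 1 against input, 169 bp against IgG and 228.5 bp in replicate 2, while all peaks of the lists had medians of 119, 120 and 181 bp. The median fold enrichment was 2.75, 2.76 and 2.52 at the Pax genes and 2.63, 2.66 and 2.45 over all peaks. The highest fold enrichments at a Pax gene, 3.55, 3.67 and 3.18, were below the highest of the lists, 4.48, 4.87 and 7.58. A fold enrichment of 3 or higher was reached by 23 of 141, 25 of 156 and 1 of 72 Pax peaks. These were 16.3%, 16.03% and 1.39% of the Pax peaks, compared with 8.96%, 10.7% and 1.56% of all peaks. A q-value of 0.05 or lower was reached by 0 Pax peaks in each list. The share of all peaks at that q-value is not given here. The share of Pax peaks at the lowest pileup, 24.1%, 13.5% and 22.2%, was below that of each whole list. Their median ratio of observed to expected CpG, 0.263, 0.251 and 0.294, was above the 0.147, 0.157 and 0.151 of all peaks.

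Most peaks of one replicate at the Pax genes did not share a base with a peak of the other. Of the 141 replicate 1 peaks against input, 16 overlapped a replicate 2 peak, or 11.3% (95% Wilson interval 7.11% to 17.6%), compared with 2.85% of all replicate 1 peaks. Of the 72 replicate 2 peaks, 14 overlapped a replicate 1 peak, or 19.4% (11.95% to 30.03%), compared with 1.90% of all. Peaks of both replicates were denser at the Pax loci, with 2.13 and 1.09 per 10 kb against 0.0835 and 0.122 over the genome. They were also longer there, and the part of density and length in the higher overlap at the Pax genes was not tested. With a distance of up to 1 kb allowed, 71 of the 141 had a replicate 2 neighbour, or 50.4%. The share over all replicate 1 peaks was not computed at that distance. When only the control was changed, 98 of the 141 peaks overlapped a peak called against IgG, or 69.5% (61.5% to 76.5%), compared with 51.0% of all. The part of depth and tag length in the low overlap of the replicates was not tested. Intervals cover counting error only and take the peaks as independent, although they come from 8 loci. Overlap with replicate 2 differed between genes, such as 0 of 31 replicate 1 peaks at Pax3 and 6 of 16 at Pax6.

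Promoter CpG content differed among the members. The ratio of observed to expected CpG within 1 kb of the 5′ end was 0.646 for Pax2, 0.610 for Pax6, 0.607 for Pax7 and 0.592 for Pax3, and the median of all protein-coding genes was 0.474. Pax5 had 0.5003 and Pax1 0.479. Pax8 had 0.263 and Pax4 0.107, which was above 7.90% of all promoters. The 2 genes with the lowest ratio were thus the 2 with the lowest covered share. This is a description of 8 genes, and the part of base composition in the peak calls was not tested.

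The list of Pax partners held Pax9 and genes of the sine oculis, Eya and Dach families, whose products act with Pax factors in several organs. Of these 13 genes, 8 had a peak in both replicates, among them Pax9, Six3, Six6 and Eya2, where the share over all protein-coding genes was 15.7%. By list, 8 had a peak in replicate 1 against input, 10 when called against IgG, and 11 in replicate 2, beside 25%, 25.9% and 35.7% of all genes. A promoter peak in both replicates was found at Pax9 and Six3, and at 1.04% of all genes. The median of the mean covered share was 0.252% for the partners and 4.12% for Pax1 to Pax8. Six3, a regulator of forebrain and eye, had 11.3% ± 2.02 and the related Six6 had 8.48% ± 4.75 (SD, n = 2). The Six3 share was above that of Pax6 in both replicates, while that of Six6 was below it in replicate 1 (5.12%) and above it in replicate 2 (11.8%). Pax9 had 5, 3 and 3 peaks in the 3 lists and 1.98% ± 0.467 (SD, n = 2), which lies between Pax5 and Pax8. The subgroup neighbour Pax1, at 4.30%, was above Pax9 in each list.

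The list of genes placed under or beside Pax factors held 22 genes, of which 13 had a peak in both replicates, beside 15.7% of all protein-coding genes. Among them were Gata3, Wt1 and Lhx1 of the kidney, Nkx3-2 and Uncx of the sclerotome, Mitf and Lbx1 of pigment cells and muscle precursors, and Neurog2 and Neurog3 of neurons and the endocrine pancreas. By list, 17 had a peak in replicate 1 against input, 18 when called against IgG, and 14 in replicate 2, beside 25%, 25.9% and 35.7% of all genes. A promoter peak in both replicates was found at Wt1, Neurog2, Uncx and Lbx1, and at 1.04% of all genes. The median of the mean covered share was 0.703%. Neurog2 had 6.19% and 20.4% in the replicates against input, and Lbx1 had 11.8% and 10.4%. The kidney genes Ret and Gdnf and the B cell genes Cd79a and Blnk did not have a peak in both replicates. Nor did the muscle genes Myf5 and Myod1, while Pax5, Pax3 and Pax7 did. Ret, Blnk and Myod1 had peaks in both lists of replicate 1, Gdnf in replicate 2 only, Cd79a only against IgG, and Myf5 in no list. The loci of Pax5, Pax3 and Pax7 are longer, at 195731, 105868 and 106467 bp. Those of Cd79a, Blnk, Myf5 and Myod1 have 14817, 75609, 13227 and 12626 bp, and the part of locus length was not tested. The loci of several genes of the list are short, such as that of Neurog2 at 12497 bp, so that their covered share is measured mainly in the flanks.

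**Figure D4:**
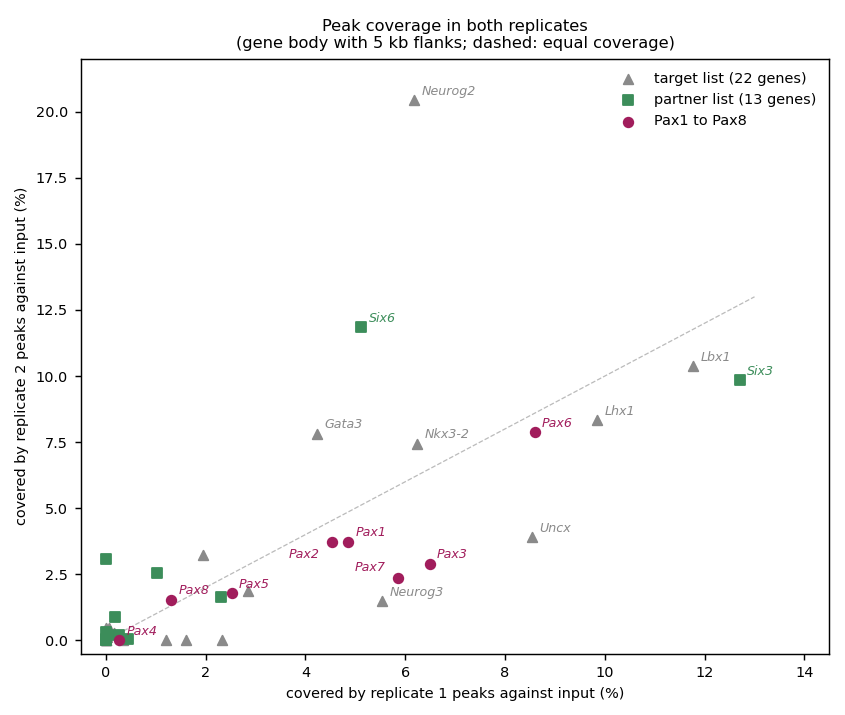
Percent of each locus covered by peaks of replicate 1 (horizontal axis) and replicate 2 (vertical axis), both against input, for Pax1 to Pax8, the 13 partner genes and the 22 target genes, with equal coverage as a dashed line. Of the Pax genes Pax6 lies highest, at 8.60% and 7.87%, below Six3, Lbx1 and Lhx1 in both replicates, and Pax8 alone lies above the dashed line.

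The genes most like Pax6 were found by the distance between covered shares over the 3 lists. The nearest 5 of all other protein-coding genes were Gfi1, Nkx2-1, Dbx1, Isl1 and Foxe1, at distances of 0.811 to 1.49 percentage points. Gfi1 had covered shares of 9.10%, 9.93% and 7.90%, and Foxe1 had 9.27%, 10.6% and 7.89%. The number of peaks at these genes ranged from 4 to 11 per list, compared with 10 to 19 at Pax6, whose locus is longer. The likeness rests on 3 values, of which 2 share the immunoprecipitated library.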

How the data were processed

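H3K27me3 ChIP-seq of molar mesenchyme was analysed from peak lists. Per the study's methods and the submitters' processing notes, BWA aligned the reads to the mouse genome (mm10, GRCm38), only unique alignments were retained, and SAMtools was used to handle them. The authors called broad peaks with MACS2 2.1.1 at a p-value of 0.005, for each library against its control and without pooling. The role of Partek, also named there, is not given in the sources used here. Per the file headers, scaling brought the bigger library down to the size of its partner, and MACS2 modelled fragments of 46 bp (replicate 1) and 71 bp (replicate 2), shorter than the tags, which narrows the pileup. The pileup that the authors deposited is a signal, namely how many scaled tags overlap on average within a peak, and is given in the text as tags for replicate 2, whose scaling factor was 1. The lowest pileup in replicate 1 was divided by its factor to give tags. The deposited fold enrichment is a ratio of pileup to control background, with a pseudocount that lowers it most at low depth. Significance was deposited as −log10 of the p-value and of the q-value. The deposited broad and gapped formats held the same peaks as the lists used, for 22757, 24881 and 33379 of the peaks.

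Groups were taken from the sample labels. Gene positions were those of GENCODE M21, and sequence that of GRCm38, in which 0 peaks lay past a chromosome end. Nuclear peaks were intersected with gene bodies and 5 kb flanks, with a minimum overlap of 1 base, using Python 3.11.15, pandas 2.3.3, numpy 2.4.6, scipy 1.17.1 and matplotlib 3.10.9. Overlap counting was tested on simulated data. Covered share is the percent of bases under peaks, and the 5′ end is the outermost annotated start of the gene. Means and SDs are over the 2 replicates against input. With 1 group, no test was made, and lists are given beside the share over all protein-coding genes except under the alternatives. Intervals are 95% Wilson intervals. Named were the 8 members, partner and target genes with a peak in both replicates, 5 genes nearest to the member with the highest covered share, and genes overlapping a Pax peak. Some genes that this rule names are not reported here, and other genes named are list members chosen after their values were seen. The partner, target and marker lists are from textbook knowledge, and the members and lists were chosen with earlier results of these data known. The alternatives changed the flank, the fold enrichment and q-value limits, the control, the number of replicate 2 peaks, the promoter, the overlap and the replicates used.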

Additional observations from a re-analysis of the deposited data

How the results depend on the processing

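With the fold enrichment limited to 3 or higher, the Pax loci held a mean of 12 peaks in place of 106.5, and the median covered share of the 8 genes fell from 3.66% to 0.187%. Under that limit 1 Pax gene had a peak in both replicates in place of 7, 0 had a promoter peak in both, 0% of replicate 1 peaks overlapped a replicate 2 peak, 43.5% were also called against IgG, and 0 partner genes and 1 target gene had a peak in both. With a q-value of 0.05 or lower, the number of Pax peaks, the covered share and the counts of Pax, partner and target genes were all 0, and overlap shares could not be computed. The share over all protein-coding genes was not computed under either limit. Of all replicate 2 peaks, 1.56% had a fold enrichment of 3 or higher. With a replicate 2 peak allowed within 1 kb, the overlap of replicate 1 peaks at the Pax genes was 50.4%, with no share over all replicate 1 peaks computed. The other settings (other flanks and promoter windows, a replicate 2 list cut to the length of the replicate 1 list, IgG as the control, an overlap of at least 50%) moved each value by less than its limit, which was 1.5 times for a count.

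With 1 replicate left out, the number of Pax peaks ranged from 72 to 141 and the median covered share from 2.63% to 4.69%. Genes with a peak in the replicates kept numbered 7 to 8 of the Pax genes, 8 to 11 of the partners and 14 to 17 of the targets, and those with a promoter peak numbered 7 of the Pax genes in either case. No paired analysis was possible because the results come from no test. The few tags behind single peaks limit how well their positions are known.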

Other observations

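Peaks around the 5′ ends of the Pax genes were also counted in wider windows, up to 50 kb to each side, which take in sequence beyond the flanks. Over the 8 genes, replicate 1 against input had 65 peaks in the 50 kb before the 5′ end and 91 in the 50 kb after it. Against IgG these were 74 and 100, and in replicate 2 they were 43 and 47. Pax2 had more peaks before the 5′ end than after it in all 3 lists, 21 against 5 in replicate 1 against input, 25 against 4 with IgG and 11 against 7 in replicate 2. Pax1, Pax5, Pax7 and Pax8 had more after it in all 3 lists, and in replicate 1 against input Pax7 had 23 after and 12 before. Some of these differences were of 1 peak only. Pax7 had 5 after and 4 before in replicate 2. Pax8 had 2 after and 1 before in replicate 1 against input, and 3 after and 2 before in each other list. Pax6 and Pax3 did not keep one order, since at Pax6 replicate 1 had 6 before and 15 after against input, while replicate 2 had 10 before and 9 after, and Pax3 had 9 on each side in replicate 2. Pax4 had at most 2 peaks on either side in any list.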
